A study of Mus musculus with 2 samples.

Results

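The genes described here are 10 genes of oxygen carriage and haem supply among 55536 genes measured in mouse heart. They are the adult haemoglobin genes Hba-a1, Hba-a2, Hbb-bs and Hbb-bt, the red cell genes Alas2 and Slc4a1, the tissue globin genes Mb, Cygb and Ngb, and Alas1. They were chosen by gene symbol, and all 10 are listed in both of the authors' quantifications, Ngb with 0 counts in replicate 2. Total RNA, reduced for ribosomal RNA and with synthetic ERCC control RNAs added as spike-ins, was sequenced in stranded libraries from 300 ng of RNA. The hearts came from male B6CASTF1/J mice, a first-generation cross of the C57BL/6J and CAST/EiJ strains, aged 36 days. The labels give 1 group of 2 biological replicates with no treatment, as separate biosamples that share a donor entry, and the labels do not say whether that entry is 1 animal. There is therefore no contrast of conditions, and the hearts are compared as replicate 1 over replicate 2. The libraries held 41846472 and 42481523 expected counts, and 8 of 8 cardiomyocyte markers reached 1 TPM (a length-scaled transcript share of the library) in both.

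Haemoglobin is a tetramer of alpha and beta chains, each holding a haem, and it is made in red cell precursors in bone marrow. Young circulating red cells have lost their nucleus but still carry globin mRNA. Cardiac muscle makes its own monomeric globin, myoglobin, which binds oxygen inside the muscle cell. The first step of haem synthesis is carried out by ALAS2 in red cell precursors and by ALAS1 in other tissues. In bulk tissue, fewer cells of a type and less RNA per cell cannot be told apart.

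The adult globin genes come as near-identical copies, which bears on every value below. The coding sequences of Hba-a1 and Hba-a2, both of 429 nt, differed at 1 base, C381T, counted from 1 at the first base of the coding sequence with the Hba-a1 base first. Those of Hbb-bs and Hbb-bt, both of 444 nt, also differed at 1 base, C417T, with the Hbb-bs base first. The 60 nt around each difference are shown from the GENCODE M21 transcripts, 5′ to 3′, with the differing base in capitals. They show how little sequence inside the coding region can assign a read to its copy. Printed bases are those of the reference strain, C57BL/6J, and CAST/EiJ alleles were not read here. The windows lie in coding exons on mm10 at chr11:32284313-32284372 and chr11:32297130-32297189, both on the plus strand, and at chr7:103826665-103826724 and chr7:103812656-103812715, both on the minus strand.
Hba-a1: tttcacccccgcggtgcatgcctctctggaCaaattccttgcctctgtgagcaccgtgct
Hba-a2: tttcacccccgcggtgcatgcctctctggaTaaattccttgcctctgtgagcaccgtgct
Hbb-bs: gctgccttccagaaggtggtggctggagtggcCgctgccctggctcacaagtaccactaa
Hbb-bt: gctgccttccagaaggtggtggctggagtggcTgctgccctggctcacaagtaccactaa

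The transcripts differed more outside the coding sequence. The annotated main transcripts were 699 nt for Hba-a1 and 554 nt for Hba-a2, and of their 31-nt words 28.7% and 8.97% were absent from the other copy. For Hbb-bs and Hbb-bt, of 628 and 703 nt, these shares were 33.1% and 40.6%. Levels are therefore given for each copy and for the summed copies. Counts of single copies differed more between the quantifications than their sums did, with Hba-a1 at 118914 counts in the first and 176267 in the second in replicate 1, and summed alpha at 210838 and 205736. In TPM the sums moved too, since summed adult globins averaged 14764 ± 7735 TPM over the hearts in the first and reached 23331 ± 11938 TPM by the second.

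Promoter sequences from RefSeq on GRCm38.p6 were matched for 7 of the 10 genes. Over 247 aligned bases before their starts, Hba-a1 and Hba-a2 were identical, while Hbb-bs and Hbb-bt matched at 175 of 244 bases. The stretches below are shown because these genes had similar ratios between the hearts, and capitals mark 4 motifs with overlapping matches included. They are GATAA on either strand, the motif CACCC on either strand, the motif CCAAT on either strand, and TATAA on the strand of the gene. As background, GATAA is the core bound by GATA factors, CACCC is bound by KLF factors such as the red cell factor KLF1, and CCAAT and TATAA are general promoter elements. Starts here are those of RefSeq, and GENCODE M21 annotates 3, 17, 30 and 30 bases of the stretches of Hba-a2, Hbb-bs, Hbb-bt and Alas2 as exon. The stretches are chr11:32296292-32296491 on the plus strand (Hba-a2), chr7:103827929-103828028 and chr7:103813967-103814066 on the minus strand (Hbb-bs and Hbb-bt), and chrX:150547305-150547404 on the plus strand (Alas2).
Hba-a2: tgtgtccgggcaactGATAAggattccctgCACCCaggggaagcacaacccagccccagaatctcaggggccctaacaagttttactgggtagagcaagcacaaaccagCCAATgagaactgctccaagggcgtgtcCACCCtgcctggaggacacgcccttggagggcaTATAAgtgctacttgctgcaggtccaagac
Hbb-bs: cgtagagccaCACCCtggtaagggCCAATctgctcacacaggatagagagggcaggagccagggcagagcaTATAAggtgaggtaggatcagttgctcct
Hbb-bt: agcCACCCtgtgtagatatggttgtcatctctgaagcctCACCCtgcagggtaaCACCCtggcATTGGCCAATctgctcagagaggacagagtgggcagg
Alas2: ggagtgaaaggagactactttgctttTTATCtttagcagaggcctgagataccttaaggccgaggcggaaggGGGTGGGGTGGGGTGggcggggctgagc

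In the 250 bases before the RefSeq start, GATAA was present in 5 of the 5 red cell genes with a promoter, which are the 4 adult globin genes and Alas2, and in 22.6% of all 32851 promoters in the table. CACCC was also present in 5 of the 5, against 52.0% of all promoters, and TATAA in 5 of the 5, against 16%. The 3 CACCC matches of Alas2 lie before the RefSeq start but inside the first exon of Alas2-201 in GENCODE M21. CCAAT was present in 4 of the 5, the exception being Alas2, and in 33.9% of all promoters. In Hba-a2 the matches began at position -185 for GATAA, -91 for CCAAT and -30 for TATAA, counted back from the annotated start. In Hbb-bs CACCC began at position -90, CCAAT at -76 and TATAA at -29. TATAA began at -27 in Hba-a1 and -28 in Hbb-bt, but at -207 in Alas2, outside the stretch shown. GATAA was in no Alas1 or Mb promoter of the table. The 5 are not separate cases, since Hba-a1 and Hba-a2 were identical over their 247 aligned bases. These matches describe the letters in the window only, and any link to the ratios between the hearts was not tested.

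Ordered by mean level over the hearts in the first quantification, Mb led at 6458 ± 373 TPM (SD, n = 2 here and throughout), followed by Hbb-bs at 5287 ± 2691 TPM, Hba-a1 at 4439 ± 2343 TPM and Hba-a2 at 4362 ± 2319 TPM. These 4 did not differ beyond their spread. Below them stood Hbb-bt at 676 ± 381 TPM, Alas1 at 180 ± 19.1 TPM and Alas2 at 65.5 ± 36.3 TPM. Cygb at 14.6 ± 0.0566 TPM, Slc4a1 at 2.16 ± 1.95 TPM and Ngb at 0.05 ± 0.0707 TPM closed the order. From Hbb-bt downwards each gene lay further from its neighbours than their SDs. The top of the order turned with the heart and the quantification. Hbb-bs stood above Mb in replicate 1 of the first quantification, at 7190 against 6194 TPM. In the second, Hba-a1 averaged 9972 ± 5304 TPM and Hbb-bs averaged 9030 ± 4346 TPM, both above Mb at 8181 ± 464 TPM, and Hba-a2 at 2724 ± 1411 TPM and Hbb-bt at 1605 ± 878 TPM stood below it. In both hearts, 8 of the 10 genes reached 1 TPM, the exceptions being Slc4a1 and Ngb. In the second quantification 9 did, with Slc4a1 at 2.97 and 1.06 TPM in replicates 1 and 2.

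**Figure D1:**
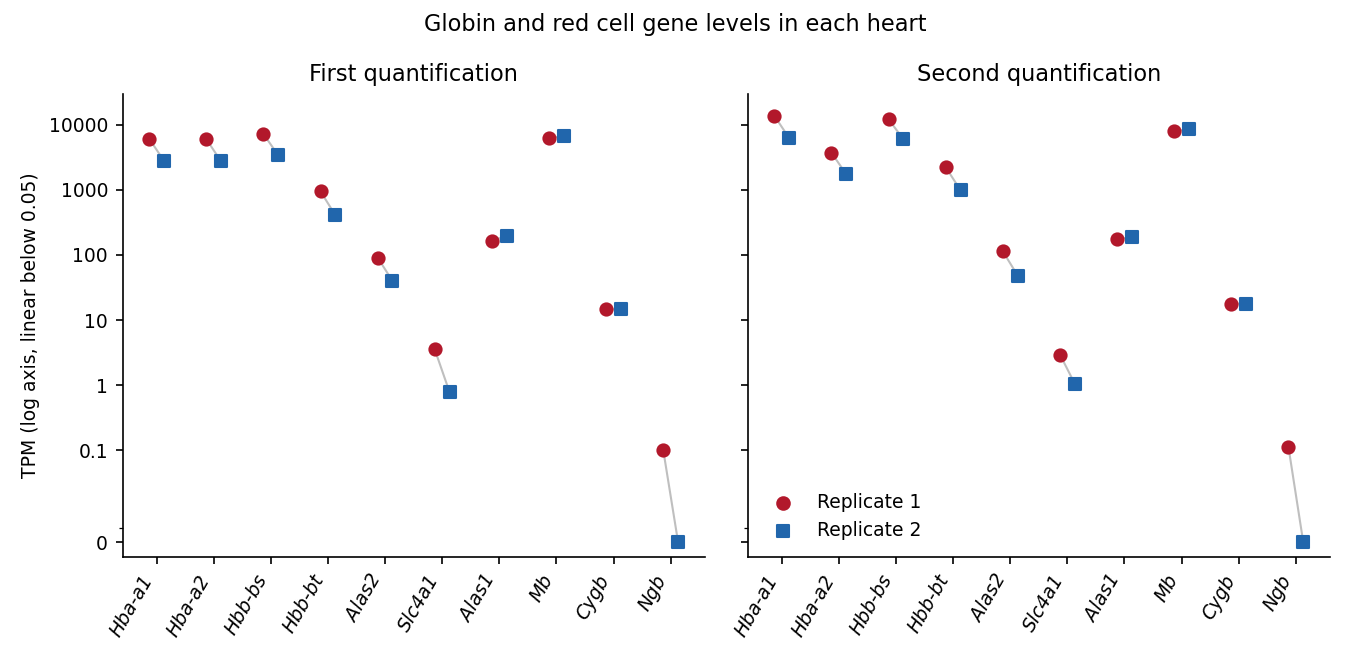
Level in TPM (log axis, linear below 0.05) of the 10 genes in replicate 1 (circles) and replicate 2 (squares), for the authors' first and second quantification. The adult globin genes, Alas2 and Slc4a1 lie higher in replicate 1 in both panels, while Mb, Alas1 and Cygb lie close together in the hearts.

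The alpha chain genes lie on chromosome 11 (Hba-a1 at 32283511 to 32284465 and Hba-a2 at 32296489 to 32297298, plus strand). Hba-a1 stood at 6096 TPM in replicate 1 and 2782 TPM in replicate 2. Hba-a2 stood at 6002 TPM in replicate 1 and 2722 TPM in replicate 2. Both copies were higher in replicate 1 by nearly the same factor, with log2 ratios of 1.19 for Hba-a1 and 1.18 for Hba-a2. Ratios are log2 of expected counts scaled by edgeR's TMM factors with a prior count of 1. The summed alpha genes held 210838 counts in replicate 1 and 95614 in replicate 2, a log2 ratio of 1.19 with a 95% interval of 1.17 to 1.20. Intervals here are exact Clopper-Pearson intervals on the counts and cover counting error only.

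The beta chain genes lie on chromosome 7 (Hbb-bs at 103826534 to 103828096 and Hbb-bt at 103812524 to 103813996, minus strand). Hbb-bs stood at 7190 TPM in replicate 1 and 3384 TPM in replicate 2, a log2 ratio of 1.13 (1.11 to 1.14). Hbb-bt stood at 946 TPM in replicate 1 and 407 TPM in replicate 2, a log2 ratio of 1.26 (1.22 to 1.29). It was listed as the less abundant copy in both quantifications, though reads were not split by parental allele. The summed beta genes held 146349 counts in replicate 1 and 68283 in replicate 2, a log2 ratio of 1.14 (1.13 to 1.16).

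Together the 4 adult globin genes stood at 20234 TPM in replicate 1 and 9295 TPM in replicate 2. They held 5.37% and 2.45% of the TPM of the 22015 nuclear protein-coding genes. The log2 ratio of their summed counts was 1.17 (1.16 to 1.18), which is 2.25-fold. With copies summed, alpha and beta globin ranked 1 and 2 among nuclear protein-coding genes in replicate 1, above Myh6, the adult cardiac myosin heavy chain. In replicate 2 they ranked 4 and 9, and Myh6 and Mb ranked 1 and 2. In the second quantification alpha and beta ranked 1 and 2 in replicate 1 and 4 and 5 in replicate 2, where Myl2, the ventricular myosin light chain, Mb and Myh6 ranked 1, 2 and 3. Per Mb transcript there were 3.27 adult globin transcripts in replicate 1 and 1.38 in replicate 2, by TPM of the first quantification. By TPM of the second these ratios were 4.05 and 1.75. Taken from expected counts, which are not scaled by length, they were 1.97 and 0.832. The second quantification gave shares of 6.48% and 3.03% of nuclear protein-coding TPM and a log2 ratio of 1.16.

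The balance of alpha and beta chains was close between the hearts. Beta genes held 40.2% of adult globin TPM in replicate 1 and 40.8% in replicate 2. In the second quantification they held 45.1% and 46.6%, a larger step than that between the hearts. The split of the alpha copies depended on the quantification far more than on the heart. Hba-a1 held 50.4% and 50.5% of alpha TPM in the first quantification, in replicates 1 and 2, and 78.7% and 78.3% in the second. Summed alpha counts were nearly the same in both, at 210838 and 95614 in the first and 205736 and 93216 in the second. Hbb-bs held 88.4% and 89.3% of beta TPM in the first and 84.5% and 85.8% in the second. Which alpha copy was more abundant is therefore not settled by these files.

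**Figure D2:**
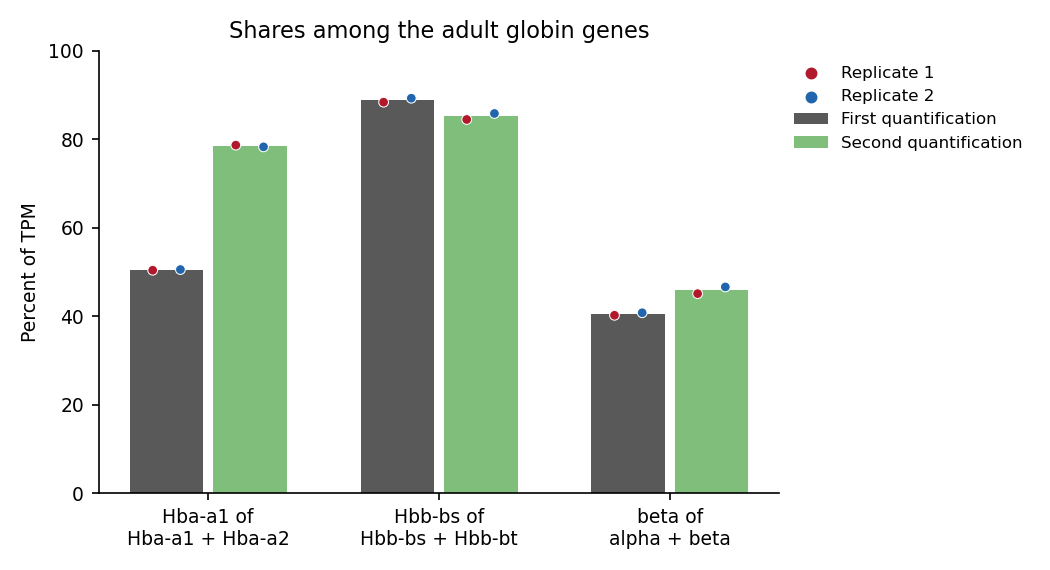
Percent of TPM held by Hba-a1 among the alpha copies, by Hbb-bs among the beta copies and by beta among all adult globin genes. Bars are the mean of the hearts in each quantification and dots the single hearts. The dots of a bar lie close together, while the Hba-a1 bars lie at 50.5% and 78.5%.

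Transcripts of the globin genes were mostly the spliced coding form. Hba-a1-201 held 90.0% and 86.2% of Hba-a1 TPM in replicates 1 and 2, and the retained intron form Hba-a1-202 held 10.01% and 13.9%. The second quantification listed Hba-a1-202 at 0 in both hearts. Hbb-bs-201 held 98.7% and 98.4% of Hbb-bs TPM, and 85.3% and 81.5% in the second quantification, where the shorter Hbb-bs-203 took the rest.

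Embryonic globin genes, which are active in the yolk sac, were at or near 0. Hba-x, Hbb-y, Hbb-bh1 and Hbb-bh2 had 0 expected counts in both hearts in the first quantification, which allows up to 3 counts, or 0.0717 and 0.0706 CPM (each count as a share of all counts in its library, scaled as TPM is) in replicates 1 and 2. The second quantification listed Hba-x at 0.571 and 0.230 TPM in replicates 1 and 2, Hbb-bh1 at 0.303 and 0 TPM, Hbb-y at 0.0945 and 0 TPM, and Hbb-bh2 at 0 in both. Of the theta globin genes, Hbq1a had 5 counts in each heart and Hbq1b had 16 in replicate 1 and 8 in replicate 2.

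Alas2 (chromosome X, 150547375 to 150570638, plus strand), the red cell enzyme of the first haem step, moved with the globin genes. It stood at 91.1 TPM in replicate 1 and 39.8 TPM in replicate 2, from 5085 and 2294 counts. Its log2 ratio of 1.19 (1.12 to 1.27) held that of the summed adult globins within its interval. Adult globin transcripts per Alas2 transcript numbered 222 in replicate 1 and 234 in replicate 2, from TPM. They numbered 279 and 308 from TPM of the second quantification, and the ratio of expected counts was 70.2 and 71.4. Apex2, which overlaps Alas2 on the opposite strand, had 145 and 228 counts.

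Slc4a1 (chromosome 11, 102348824 to 102366203, minus strand) encodes band 3, the anion exchanger of the red cell membrane. It had 283 counts in replicate 1 and 88 in replicate 2, or 3.54 and 0.78 TPM. Its log2 ratio of 1.72 (1.38 to 2.09) was the highest of the 9 with a mean count of 50 or more, and its interval lay above that of the summed adult globins. Part of its TPM rests on few reads. The short noncoding forms Slc4a1-203 and Slc4a1-204 held 29.4% and 20.1% of its TPM in replicate 1 from 9 and 6.19 counts.

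A gene was called by size alone, where its mean expected count reached 50 and its ratio reached 2-fold. No test is given, because with 2 hearts the smallest p of an exact two-sided sign permutation is 0.5. Of the 9 genes with enough counts, 6 were called higher in replicate 1 and 0 in replicate 2. Among all 12541 genes tested, 1.00% were called higher in replicate 1 and 0.279% in replicate 2, or 1.28% in either. In the second quantification the same counts of 6 and 0 stood beside 0.901% and 0.253% of 12654 genes, or 1.15% in either direction. The 6 are the 4 adult globin genes, Alas2 and Slc4a1, and the globin copies share reads, so they are not 6 separate measurements. The median log2 ratio was 1.18 over the 9 genes and -0.00052 over all genes tested. By rank from the highest ratio toward replicate 1, Slc4a1 stood at 42, Hbb-bt at 73 and Hbb-bs at 94 of 12541. At a 3-fold threshold 1 of the genes, Slc4a1, was left.

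**Figure D3:**
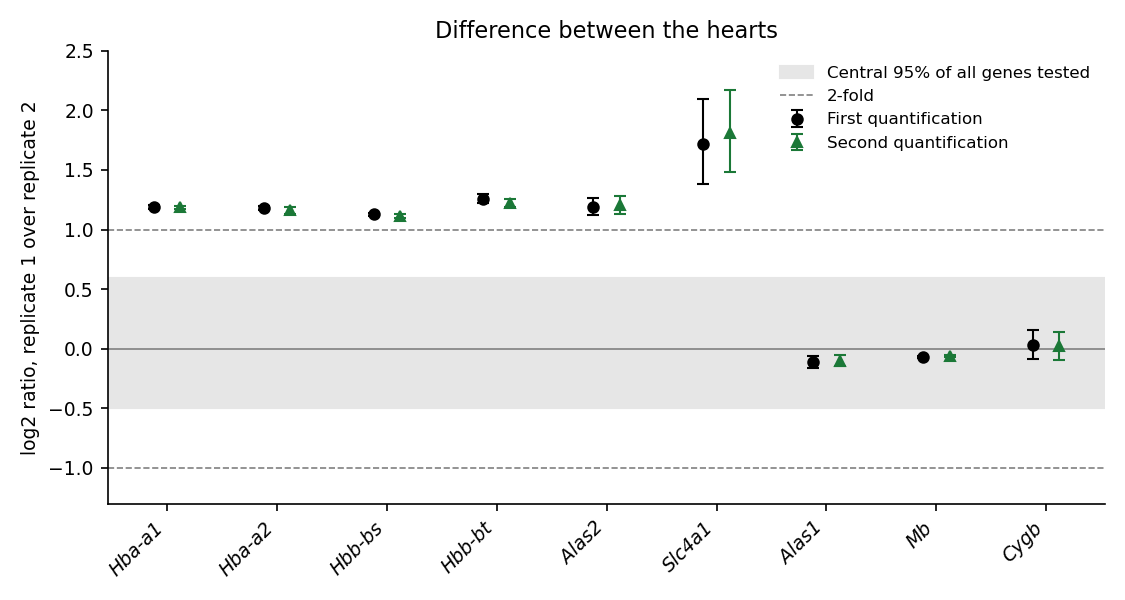
Log2 ratio of replicate 1 over replicate 2 for the 9 genes with a mean count of 50 or more, with 95% counting intervals, in the first (circles) and second (triangles) quantification. The band is the central 95% of 12541 genes (-0.50 to 0.59) and the dashed lines are 2-fold; 6 genes lie above the upper line and Alas1, Mb and Cygb lie inside the band.

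Other genes of the red cell did not stand with the globins as a body. Of the late red cell genes, 15 of 19 in the files had a mean count of 10 or more, with a median log2 ratio of 0.23, against -0.0011 over the 15749 genes with that count. Among those called was Slc25a37, the mitochondrial iron importer mitoferrin, with 2183 and 1109 counts in replicates 1 and 2 and a log2 ratio of 1.02. It lay at the threshold and was below it under library totals and spike-in scaling. Ube2l6 at 0.76, Bpgm, which makes the haemoglobin regulator 2,3-bisphosphoglycerate, at 0.71 and Mkrn1 at 0.67 stood below it. Prdx2, Cat and Xpo7, which many cell types use, stood at 0.026, -0.026 and 0.0066. Several genes that few other cells use had few reads, among them Trim10 with 38 and 11 counts and Hemgn with 10 and 1, in replicates 1 and 2. Car1 had 0 counts in both hearts.

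Of the membrane and skeleton genes, 13 of 17 had a mean count of 10 or more, with a median of 0.14, and 0.064 without Slc4a1. Slc4a1 was the only one called. Ank1, Sptb and Tmod1, which heart muscle also expresses, were abundant and stood at -0.0092, -0.12 and -0.11. Aqp1, a water channel also found in endothelium, stood at 0.22. Some transcription factors of red cell precursors were near the floor and others were not. Klf1 had 0 counts in both hearts and Gata1 had 2 in replicate 1 and 1 in replicate 2. Gfi1b had 0 and 2 and Nfe2 had 9 and 15, in replicates 1 and 2. Zfpm1 had 898 and 902, Bcl11a 183 and 232 and Tal1 171 and 153. The list of red cell transcription factors and receptors had a median of -0.13 over 6 genes, of which 4 had enough counts to be called and 0 were.

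**Figure D4:**
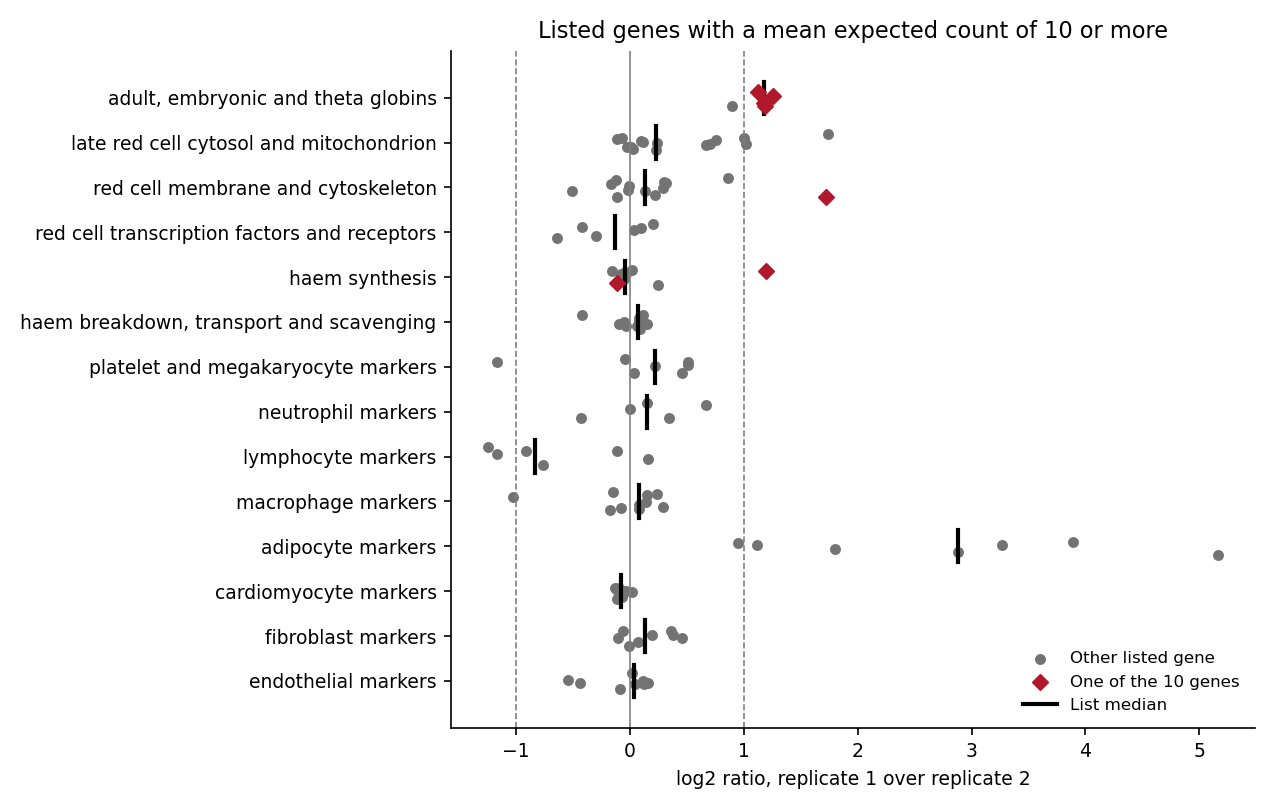
Log2 ratio of replicate 1 over replicate 2 for each listed gene with a mean count of 10 or more, by list, with list medians as black bars and the 10 genes described as diamonds. The globin list lies above 0.8, most red cell and haem lists centre near 0, and the adipocyte list lies furthest toward replicate 1.

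The haem pathway showed the same contrast between its first enzymes. Of its 9 genes, Alas2 was the only one called, and the median log2 ratio was -0.042. Fech, ferrochelatase, which inserts iron in the last step, stood at 86.4 TPM in replicate 1 and 74.0 TPM in replicate 2, a ratio of 0.25. Alad, Uros, Urod, Cpox and Ppox, enzymes between these steps, ranged from -0.15 for Uros to 0.019 for Ppox. Of the 10 genes for haem breakdown, transport and scavenging with enough counts, none were called, with a median of 0.070. Hmox1, haem oxygenase, had 230 and 219 counts in replicates 1 and 2.

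Alas1 (chromosome 9, 106233455 to 106248654, minus strand), the enzyme form of other tissues, stood at 166 TPM in replicate 1 and 193 TPM in replicate 2. Its log2 ratio was -0.11 (-0.16 to -0.064), inside the central range of all genes. Alas1 held 64.6% of the summed TPM of Alas1 and Alas2 in replicate 1 and 82.9% in replicate 2. That share followed Alas2, whose level differed while that of Alas1 stayed close. In the second quantification the share was 60.3% and 79.6%. Alas1 was the more abundant in both hearts under both quantifications.

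Mb (chromosome 15, 77015487 to 77050670, minus strand) was measured at a similar level in both hearts. It stood at 6194 TPM in replicate 1 and 6722 TPM in replicate 2, from 181744 and 196971 counts. Its log2 ratio of -0.071 (-0.080 to -0.062) stood beside those of heart muscle genes, with Myl2 at -0.071, Actc1 at -0.12 and Myh6 at -0.13, and a median of -0.081 over 8 cardiomyocyte markers. In the first quantification Mb ranked 2 among nuclear protein-coding genes by mean TPM, below Myh6 and directly above Myl2. In the second it stood at 7854 and 8509 TPM in replicates 1 and 2, and its mean of 8181 TPM lay above that of Myh6 at 7523 TPM and below that of Myl2 at 13936 TPM.

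The files did not settle which Mb transcript was main. In the first quantification Mb-202 held 38.1% and 41.3% of Mb TPM in replicates 1 and 2, Mb-206 33.0% and 33.4%, and Mb-203 28.2% and 24.3%. In the second, Mb-203 held 58.5% and 57.1% and Mb-202 24.3% and 23.7%. Mb-206 held 0.0070% and 1.73% there, and Mb-205, listed at 0 in the first, held 12.7% and 13.6%. Within each quantification the order of Mb-202 and Mb-203 was the same in both hearts. The question bears on where transcription starts, since the annotated start of Mb-202 lies 27883 bases upstream of that of Mb-203. The 100 bases before the Mb-203 start, chr15:77022788-77022887 on the minus strand of GRCm38.p6 from RefSeq, are shown with the CACCC match in capitals.
Mb: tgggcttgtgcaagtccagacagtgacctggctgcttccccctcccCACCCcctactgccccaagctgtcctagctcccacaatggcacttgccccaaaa

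Of the 9 genes with a main transcript in both hearts, all had the same one in both hearts in the first quantification. The second named the same transcript for 7 of them, the exceptions being Mb and Alas1. For Alas1 the first put Alas1-211, of 460 nt, first at 48.6% and 50.6%, and the second put Alas1-206, of 1905 nt, first at 47.0% and 47.7%. Alas1-206 is annotated as a processed transcript, a noncoding class. Alas2-201 led in both, at 61.0% and 66.4% of Alas2 TPM in the first.

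**Figure D5:**
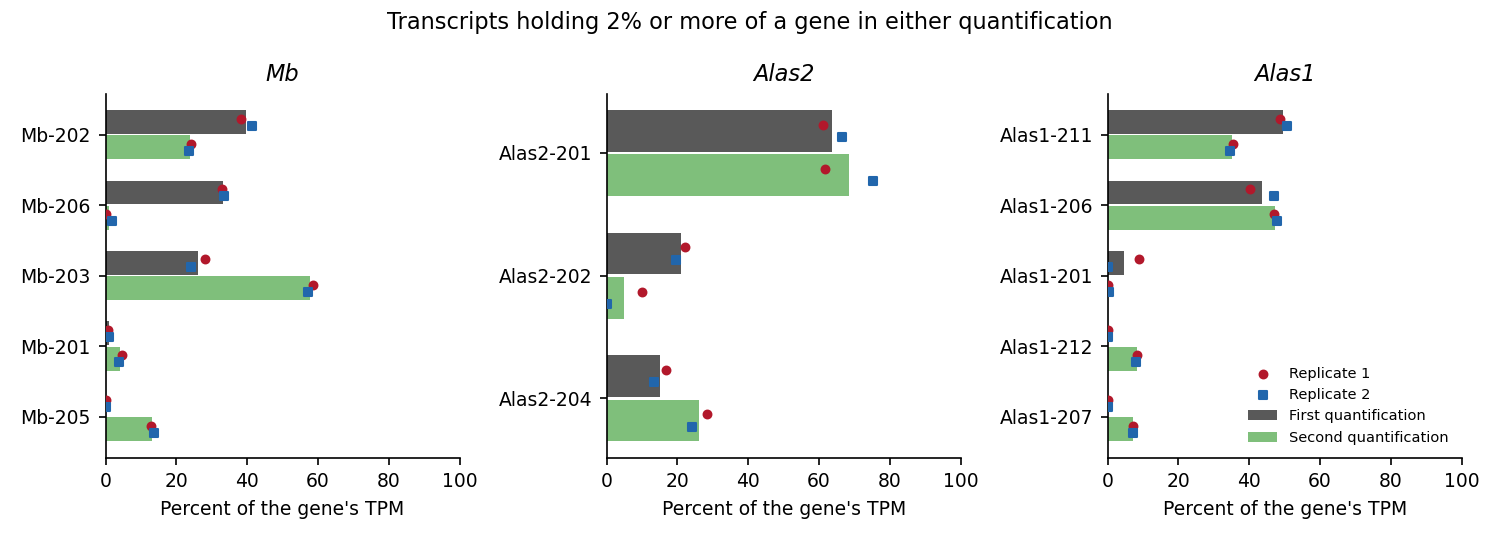
Percent of each gene's TPM by transcript for Mb, Alas2 and Alas1, with bars as the mean of the hearts in each quantification and dots as replicate 1 (circles) and replicate 2 (squares). The quantifications put different transcripts first for Mb and Alas1, and the same one, Alas2-201, for Alas2.

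The other tissue globins were far lower. Cygb (chromosome 11, 116645595 to 116654313, minus strand), cytoglobin, is a globin of fibroblast-like cells. It stood at 14.6 and 14.7 TPM in replicates 1 and 2, from 1097 and 1107 counts, at a log2 ratio of 0.032 (-0.090 to 0.15) whose sign turned to -0.042 under spike-in scaling. The fibroblast markers, for comparison, had a median of 0.13 over 8 genes. Ngb (chromosome 12, 87097531 to 87102539, minus strand), neuroglobin, is a globin of nerve cells. It had 5 counts in replicate 1 and 0 in replicate 2, so no ratio is given, and its level was not distinguishable from the floor of 3 counts in replicate 2. Of 13 neuron and glia markers, 5 had a mean count of 10 or more, 3 had enough to be called and 0 were. Mb held 99.76% and 99.78% of the TPM of Mb, Cygb and Ngb in replicates 1 and 2. There were 424 Mb transcripts per Cygb transcript in replicate 1 and 458 in replicate 2, by TPM. The second quantification gave 442 and 474, and the ratio of expected counts was 166 and 178. Hypoxia genes, listed because oxygen carriers are often read beside them, had a median log2 ratio of -0.089 with none of 13 called.

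Markers of other cells also differed between the hearts. Of 8 adipocyte markers, 7 had a mean count of 10 or more, and all 7 were higher in replicate 1, with 5 of 6 called and a median log2 ratio of 2.88. Their summed level was 111 TPM in replicate 1 and 26.9 TPM in replicate 2, and none had 0 counts. Acta1, the skeletal actin that heart also expresses, stood at 493 and 242 TPM in replicates 1 and 2, a ratio of 1.07. It was the only skeletal muscle marker called, of 2 with a mean count of 50 or more, and the other, Ckm, stood at -0.12. Of the 4 skeletal muscle markers with a mean count of 10 or more, 2 were above 0, with a median of 0.27. Among blood cells, neutrophil markers had a median of 0.15 over 5 genes with 8.01 and 7.30 TPM summed, and Elane and Mpo at 0 in both hearts. Platelet markers had a median of 0.22 over 7 genes with 27.0 and 20.9 TPM summed, and none at 0 in both. Lymphocyte markers stood at -0.83 over 6 genes with 4.60 and 8.54 TPM summed and none at 0 in both, and macrophage markers at 0.079 over 10 genes. Few of these markers could be called, since 2 neutrophil, 4 platelet, 1 lymphocyte and 9 macrophage markers had a mean count of 50 or more, and 0 of those passed 2-fold. Below that count the B cell markers Cd79b, with 17 and 43 counts in replicates 1 and 2, and Cd79a, with 18 and 43, stood at -1.25 and -1.17, and the macrophage receptor Fcgr1, with 21 and 45, at -1.02. The part of these markers in the globin difference was not tested.

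Genes other than the 10 were searched for a ratio like that of the adult globins. Among the 10, Alas2 lay within 0.1 of it in both quantifications, at log2 ratios of 1.19 and 1.21. Of 11711 other nuclear protein-coding genes with a mean count of 50 or more, 17 had a log2 ratio within 0.1 of the summed adult globins in both quantifications. Of these, 0 were in a red cell list. Few listed genes outside the 10 had that count, namely 10 membrane and skeleton, 14 late red cell and 4 transcription factor and receptor genes. The 0 therefore says little about red cell genes. The 10 of the 17 with the highest level were Depp1, Sik1, Adamts1, Tent5c, Irs2, Letmd1, Rasd1, Acat2, Slc25a25 and Npas2. Depp1 stood at 51.0 TPM in replicate 1 and 22.3 TPM in replicate 2. With 2 hearts this likeness rests on 1 ratio per gene.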

How the data were processed

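The authors deposited a first quantification on mm10 with GENCODE M21, per the sample notes deposited with each library, which holds expected counts, TPM and FPKM for genes and transcripts and the percent of a gene's TPM in each transcript. The authors also deposited a second quantification, which holds estimated counts and TPM for transcripts and was summed by gene here. The sources used here do not name the aligner or quantifiers. Reads of the F1 hybrid were not split by parental allele.

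TMM factors (edgeR 4.0.16 in R 4.3.3) were computed without spike-ins on rounded expected counts. Sequences were handled in Python 3.11.15 with Biopython 1.88. The ratio and the 2-fold rule were tested on simulated data with planted changes larger than 2-fold. How the rule acts near 2-fold was not tested. Named are the 10 genes, members of the gene lists, the 10 genes most like the summed adult globins and the neighbours of Mb by level. The genes and lists were chosen with earlier results of these data known. Both biosamples share a donor entry, so the spread between them may be partly technical. FPKM values, scaled to library and length by the authors, entered no comparison. Genes overlapping one of the 10 genes lay on the other strand and had at most 228 counts in the first quantification and 241 in the second. Results for some genes of the lists are left out of the text.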

Additional observations from a re-analysis of the deposited data

How the results depend on the processing

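The log2 ratio of the summed adult globins was 1.17, and 1.10 to 1.17 under library totals, DESeq2 size factors (DESeq2 1.42.0), spike-in totals, the second quantification and a prior count of 5. The genes among the 10 called higher in replicate 1 numbered 6 under the scalings and the second quantification, as at 1.5-fold and at a mean count of 10. They numbered 5 at a mean count of 200, 7 with no count filter, which takes in Ngb on 5 counts, and 1 at 3-fold. The 161 genes called among all genes numbered 535 at 1.5-fold, 57 at 3-fold, 561 at a mean count of 10, 83 at 200 and 4118 with no filter. The 2 other red cell genes called numbered 0 under library totals, spike-in totals and 3-fold, and 5 at 1.5-fold. By expected counts the adult globin share of nuclear protein-coding genes was 1.06% on average, against 3.91% by TPM, and 1.49% of the TPM of all genes without spike-ins. The beta share of 40.5%, the Hba-a1 share of 50.5%, the Hbb-bs share of 88.8% and the Mb share of 99.77% were 41.3%, 56.3%, 87.4% and 99.42% when taken from expected counts. The second quantification gave 45.9% for beta, 78.5% for Hba-a1 and 85.1% for Hbb-bs. The causes were not tested. With 1 heart left out no ratio could be formed, and in a lone heart the adult globin share was 2.45% to 5.37%. Spike-in totals moved the median of all genes by -0.074. No paired analysis was possible because the labels give 1 group only. Depth limits Slc4a1 and Ngb most.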
